A study of Mus musculus with 12 samples.

Results

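Gdf3 and Apobec1 lie side by side on mouse chromosome 6, with no other gene between them in the RefSeq gene order, and their nearest neighbours with a probe set of their own are Dppa3, Nanog and Slc2a3 on the Gdf3 side and Mfap5 on the Apobec1 side. These 6 genes, measured by 7 probe sets, are described here out of 19938 genes that have their own probe set and 35511 probe sets on the array. Gdf3 and Apobec1 were chosen by their lower values in Prlr-/- than in Prlr+/+ islets of pregnant mice, so those values are given as a description, without a test. The other 4 genes were chosen for their position, and the comparison asks whether they share the pattern of the pair. Where a gene had more than 1 probe set, the one with the higher mean over the arrays was used, and no gene was removed for a low value. The probe sets are 10547633 (Gdf3), 10547621 (Apobec1), 10541515 (Dppa3), 10541524 (Nanog), 10547641 (Slc2a3) and 10541496 (Mfap5), with 10604135 as the second one of Dppa3.

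RNA of isolated islets of Langerhans was measured on 12 Affymetrix MoGene_1.0_ST arrays, 3 biological replicates in each of 4 groups of female 129Sv mice. The groups were pregnant Prlr-/- mice on gestational day 9.5 (P9.5), pregnant Prlr+/+ mice of the same day, non-pregnant (NP) Prlr-/- mice and NP Prlr+/+ mice. Prlr encodes the receptor for prolactin and placental lactogen, and the Prlr-/- mice lack it in every tissue, not in the islet alone. These females are sterile, and the pregnant ones carried a progesterone pellet that the methods describe for no other group. At P9.5 the genotype and the pellet therefore cannot be told apart. Nor can pregnancy and the pellet between P9.5 and NP Prlr-/- mice, or in the difference of pregnancy effects between genotypes. Below, a change with pregnancy in Prlr-/- islets means P9.5 with the pellet against NP. Per the labels, replicates are biological, but the sources used here do not give how many animals gave each RNA. The mice were adults, with an age range in the study but no age for each array. The p-values measure the spread between these samples. The Prlr transcript itself was not analysed here.

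GDF3 is a growth factor of the TGF-beta superfamily, which signals with a co-receptor through the activin receptor-like kinases ALK4 and ALK7 to SMAD2 and SMAD3 and can also inhibit BMPs. It is known from the early embryo and from adipose tissue. APOBEC1 is the cytidine deaminase that edits apolipoprotein B mRNA, with the cofactor A1CF, in the small intestine and, in rodents, the liver. DPPA3 (Stella) is a maternal factor that protects DNA methylation in the zygote, and NANOG is a homeodomain factor of pluripotent cells. Gdf3, Dppa3 and Nanog are known as a cluster expressed together in embryonic stem cells. SLC2A3 (GLUT3) is the high-affinity glucose transporter of neurons, whereas rodent beta cells use GLUT2, and MFAP5 is a glycoprotein of elastic microfibrils.

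The lactogenic receptor signals through JAK2 and STAT5, which binds palindromes of the form TTCNNNGAA. RefSeq promoter windows of 300 bases (250 before and 50 after the start of the transcript, GRCm38.p6) matched 2 of the 6 genes, Apobec1 and Nanog. Both are shown because Apobec1 belongs to the pair and Nanog does not, and they stand 5′ to 3′ on the strand of the gene, all in lower case because capitals were kept for the motif.
Apobec1 (chr6:122602395-122602694, minus strand): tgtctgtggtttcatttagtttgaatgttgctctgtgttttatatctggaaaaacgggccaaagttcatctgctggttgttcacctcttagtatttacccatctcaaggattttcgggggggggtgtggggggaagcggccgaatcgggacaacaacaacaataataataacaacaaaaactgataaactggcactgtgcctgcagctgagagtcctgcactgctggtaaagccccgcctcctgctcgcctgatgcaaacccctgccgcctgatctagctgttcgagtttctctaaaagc
Nanog (chr6:122707239-122707538, plus strand): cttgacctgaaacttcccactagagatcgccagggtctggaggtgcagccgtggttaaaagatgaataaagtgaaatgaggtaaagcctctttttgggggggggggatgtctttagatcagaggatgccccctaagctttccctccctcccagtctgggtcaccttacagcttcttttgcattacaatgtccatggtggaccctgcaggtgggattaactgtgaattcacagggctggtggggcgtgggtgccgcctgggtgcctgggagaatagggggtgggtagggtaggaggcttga
Neither window holds the motif, which reads the same on both strands, and 2726 of the 32851 windows of this length in the table (8.3%) do. GC content was 48.3% in the Apobec1 window and 54.3% in the Nanog window, and a second Nanog start a little downstream (56.0% GC) had no match either. The match is to letters only, in these windows only.

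Values are log2 expression per probe set, made by the authors with robust multichip analysis and rounded to 0.1. Calls required a fold change of 1.5 or more together with an adjusted p under 0.05, from limma with Benjamini-Hochberg adjustment over all 35511 probe sets. The number of arrays limits the precision, and an exact permutation test of 3 arrays against 3 cannot give a two-sided p under 0.10. Arrays of a group correlated at 0.979 to 0.987. The 10 measured islet hormone and islet identity markers averaged 11.22 to 11.58 on the log2 scale in every array. The 9 measured acinar markers were high too and varied more, from a mean of 9.21 in a Prlr-/- P9.5 array to 11.2 in a Prlr-/- NP array. Xist, which coats the inactive X chromosome of female cells, was at 3.8 in replicate 2 of Prlr+/+ P9.5, against 10 to 10.7 in the other 11 arrays, while the Y-linked Kdm5d was at 4.1 to 4.6 in all arrays. That array belongs to the group in which Gdf3 and Apobec1 were high, and values without it are given below.

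Gdf3 was at 6.0, 6.0 and 5.9 on the log2 scale in Prlr-/- P9.5 islets, against 8.8, 8.4 and 8.7 in Prlr+/+ P9.5 islets. In islets of NP mice it was at 5.5, 6.0 and 6.0 in Prlr-/- and at 6.6, 5.9 and 6.2 in Prlr+/+. The 3 Prlr+/+ P9.5 arrays thus stood above the other 9, with a gap of 1.8 to the highest of the NP Prlr+/+ arrays and of 2.4 to the highest Prlr-/- P9.5 array. As group means, Gdf3 was at 5.97 ± 0.06 in Prlr-/- P9.5 and 8.63 ± 0.21 in Prlr+/+ P9.5 islets (SD, n = 3 each), a log2 fold change of -2.67, or 6.35-fold lower. Between P9.5 and NP the log2 fold change was 0.13 in Prlr-/- islets and 2.40 in Prlr+/+ islets.

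Apobec1 was at 6.8, 6.6 and 6.5 in Prlr-/- P9.5 islets, against 8.8, 9.1 and 8.7 in Prlr+/+ P9.5 islets. In NP islets it was at 6.2, 6.3 and 6.5 in Prlr-/- and at 6.5, 6.0 and 6.0 in Prlr+/+. As for Gdf3, the 3 Prlr+/+ P9.5 arrays were the high ones, with a gap of 1.9 to the highest Prlr-/- P9.5 array. The means were 6.63 ± 0.15 in Prlr-/- P9.5 and 8.87 ± 0.21 in Prlr+/+ P9.5 islets (SD, n = 3 each), a log2 fold change of -2.23, or 4.70-fold lower. The log2 fold change between P9.5 and NP was 0.30 in Prlr-/- and 2.70 in Prlr+/+ islets. Since the comparisons share groups, the difference of the pregnancy effect between the genotypes (Prlr-/- minus Prlr+/+), -2.27 for Gdf3 and -2.40 for Apobec1, holds the same arrays that chose the pair. With replicate 2 of Prlr+/+ P9.5 left out, Prlr-/- against Prlr+/+ at P9.5 gave a log2 fold change of -2.78 for Gdf3 and -2.12 for Apobec1.

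The comparison of genotypes in NP mice shares no array with the choice of the pair and was tested for all 6 genes. For Gdf3 this was a log2 fold change of -0.40 (standard error, SE, 0.185, 95% confidence interval -0.80 to 0.00, adjusted p = 0.405 from limma), and the groups overlapped. For Apobec1 it was 0.17 (95% confidence interval -0.18 to 0.51, adjusted p = 0.723 from limma). None of the 6 genes was called by limma in this comparison, in which 0.101% of all probe sets were and 12.3% had an unadjusted p under 0.05. One of them, Nanog, had an unadjusted p under 0.05 in limma (adjusted p = 0.350 from limma, log2 fold change 0.30), and its lowest NP Prlr-/- array was 0.1, a single rounding step, above its highest NP Prlr+/+ array.

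**Figure D1:**
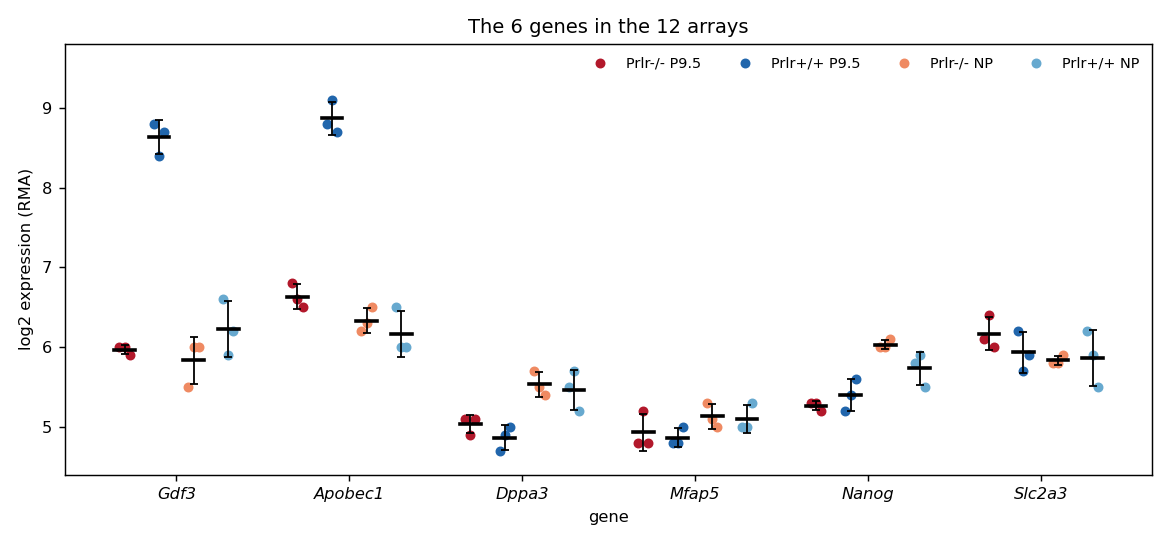
The log2 expression of each of the 6 genes (y axis) is plotted for the 12 arrays, with groups in the order Prlr-/- P9.5, Prlr+/+ P9.5, Prlr-/- NP and Prlr+/+ NP. Points are arrays, and bars are the mean and SD of 3. For Gdf3 and Apobec1 the Prlr+/+ P9.5 arrays sit at 8.4 to 9.1, above all others, whereas no such step is seen for the other 4 genes.

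The neighbours did not show this step. At P9.5, 0 of the 4 were called between Prlr-/- and Prlr+/+ islets by limma, and unadjusted p-values under 0.05 numbered 0 of 4. In this comparison 0.231% of all probe sets were called, 73 lower and 9 higher, and 5.42% had an unadjusted p under 0.05. Counts of 0 of 4 are therefore near the background of the array, and the size of the changes says more. The log2 fold changes of the 4 were -0.13 to 0.23, and no confidence interval reached beyond -0.41 or 0.62, so a change of the size seen for the pair lay outside each interval. At these P9.5 arrays the values of Prlr-/- and Prlr+/+ islets overlapped for every neighbour.

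Dppa3, the next gene beyond Gdf3, was at 5.1, 4.9 and 5.1 in Prlr-/- P9.5 islets, against 4.7, 4.9 and 5.0 in Prlr+/+ P9.5 islets. NP islets had 5.7, 5.5 and 5.4 in Prlr-/- and 5.5, 5.7 and 5.2 in Prlr+/+. Both genotypes thus lay lower at P9.5 than in NP mice without overlap, the opposite direction to the pair in Prlr+/+ islets. The genotypes at P9.5 differed by a log2 fold change of 0.17 (95% confidence interval -0.14 to 0.47, adjusted p = 0.977 from limma). In Prlr+/+ islets Dppa3 fell with pregnancy, by a log2 fold change of -0.60 (SE 0.139, adjusted p = 0.0105 from limma), in a comparison in which 9.93% of all probe sets were called. This call sits at the fold minimum: with median centring of the arrays the value was -0.53, and it was not called without NP replicate 1, NP replicate 2 or P9.5 replicate 1 of Prlr+/+ (-0.58, -0.48 and -0.52). In Prlr-/- islets the log2 fold change was -0.50 (adjusted p = 0.0176 from limma), under the fold minimum. A second probe set with the symbol Dppa3 had 3.9, 4.2 and 4.0 in Prlr-/- P9.5 and 4.1, 4.1 and 4.3 in Prlr+/+ P9.5 islets. It was called in none of the 5 comparisons, and its P9.5 against NP log2 fold change in Prlr+/+ islets was -0.10. RefSeq also lists pseudogene copies of Dppa3 and of Nanog, and it is not known here how far their probe sets read these.

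Nanog was at 5.3, 5.3 and 5.2 in Prlr-/- P9.5 islets, against 5.2, 5.4 and 5.6 in Prlr+/+ P9.5 islets. In NP islets it was at 6.0, 6.0 and 6.1 in Prlr-/- and at 5.8, 5.9 and 5.5 in Prlr+/+. The NP Prlr-/- arrays were the highest and lay 0.7 above the Prlr-/- P9.5 arrays. In Prlr-/- islets Nanog was lower at P9.5 than in NP mice, by a log2 fold change of -0.77 (SE 0.125, adjusted p = 0.00105 from limma). In this comparison, which also holds the pellet, 14.5% of all probe sets were called. In Prlr+/+ islets the log2 fold change was -0.33 (adjusted p = 0.0764 from limma). The difference between these effects was -0.43 (adjusted p = 0.448 from limma, with an unadjusted p under 0.05), and 0 of the 4 neighbours were called for that difference, against 0.0788% of all probe sets. At P9.5 the genotypes differed by -0.13 (95% confidence interval -0.41 to 0.14, adjusted p = 0.977 from limma). The acinar marker sum, over 9 measured digestive enzyme and acinar factor genes, moved the same way in Prlr-/- mice, and its part in the Nanog value was not tested. On the linear scale the sum was 8640 to 26200 in Prlr-/- P9.5 and 27100 to 45900 in Prlr-/- NP islets, with 6 of the 9 genes called lower and 1 higher. Other cell type marker lists moved too in this comparison. Median log2 fold changes were -0.467 for lymphocyte, -0.333 for adipocyte and -0.267 for ductal markers. Endothelial and stromal markers went the other way (0.283 and 0.117), and macrophage and islet markers were at -0.02 and -0.03. The part of these was not tested either.

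Slc2a3 was at 6.1, 6.4 and 6.0 in Prlr-/- P9.5 islets and at 6.2, 5.7 and 5.9 in Prlr+/+ P9.5 islets. In NP mice it was at 5.8, 5.8 and 5.9 in Prlr-/- and 6.2, 5.9 and 5.5 in Prlr+/+ islets. No group stood apart from all others, although Prlr-/- P9.5 lay 0.1 above Prlr-/- NP. The log2 fold change of Prlr-/- against Prlr+/+ at P9.5 was 0.23 (95% confidence interval -0.16 to 0.62, adjusted p = 0.977 from limma), and between P9.5 and NP it was 0.33 in Prlr-/- (adjusted p = 0.169) and 0.07 in Prlr+/+ islets (adjusted p = 0.827), both from limma.

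Mfap5 was at 4.8, 5.2 and 4.8 in Prlr-/- P9.5 islets and at 4.8, 4.8 and 5.0 in Prlr+/+ P9.5 islets. NP mice had 5.3, 5.1 and 5.0 in Prlr-/- and 5.0, 5.0 and 5.3 in Prlr+/+ islets. All 12 arrays thus lay within 4.8 and 5.3. The genotypes at P9.5 differed by a log2 fold change of 0.07 (95% confidence interval -0.23 to 0.37, adjusted p = 0.977 from limma), and P9.5 against NP gave -0.20 in Prlr-/- (adjusted p = 0.280) and -0.23 in Prlr+/+ islets (adjusted p = 0.249), both from limma. Mfap5 and Dppa3 belong to the dimmest 40% of probe sets, and with no detection calls in the table it is not known whether these values are above background.

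A wider stretch was then read, with 15 genes on each side of Gdf3 in the RefSeq order. Of these 30, 15 had a probe set of their own, among them 13 of 15 protein-coding genes, which leaves 14 measured genes beside the pair. The immediate flanks of the pair were Dppa3 and, across unmeasured genes, Mfap5. Of the 14, 0 were called by limma at P9.5 between Prlr-/- and Prlr+/+ islets, beside 0.231% of all probe sets. None had an unadjusted p under 0.05 in limma, beside 5.42% of all probe sets. Their log2 fold changes ran from -0.17 (C3ar1, the receptor for complement fragment C3a) to 0.23 (Slc2a3). Their median was 0.05, beside a median of 0 over all probe sets, and their confidence intervals together spanned -0.46 to 0.62. Several were dim, such as Gm10319 (3.3 to 3.9), Klrg1 (3.9 to 4.5) and Clec4a1 (4.2 to 4.6). These lay no higher than the 4.6 reached by the Y-linked Kdm5d in these female mice. Whether they are above background is not known, so their lack of change says little about the stretch. For the difference of the pregnancy effects limma called 0 of 14 as well (1 with an unadjusted p under 0.05, Nanog), and in NP mice 0 of 14 (2 with an unadjusted p under 0.05). Of all probe sets, 0.0788% were called for the difference and 0.101% in NP mice. An unadjusted p under 0.05 in limma was found for 9.85% and 12.3% of them, so these counts are near the background of the array.

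With pregnancy, Foxj2, a forkhead transcription factor on the far side of Slc2a3, was called besides Dppa3 and Nanog. Foxj2 was at 6.9, 7.3 and 7.3 in Prlr-/- P9.5 and 7.0, 7.4 and 7.2 in Prlr+/+ P9.5 islets, against 7.6, 7.7 and 7.8 in Prlr-/- NP and 7.9, 7.9 and 7.8 in Prlr+/+ NP islets. Both genotypes were lower at P9.5 without overlap. The log2 fold change was -0.53 in Prlr-/- (adjusted p = 0.0101, under the fold minimum) and -0.67 in Prlr+/+ islets (adjusted p = 0.0048, called), both from limma, and without Prlr+/+ P9.5 replicate 1 the value in Prlr+/+ islets was -0.57 and not called. Over the 14 genes, 1 was called in Prlr-/- islets and 2 were in Prlr+/+ islets, all lower, with medians of -0.15 and -0.17 beside -0.07 over all probe sets in each genotype. As 14.5% of all probe sets were called in Prlr-/- and 9.93% in Prlr+/+ islets, these counts are near the background of the array.

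**Figure D2:**
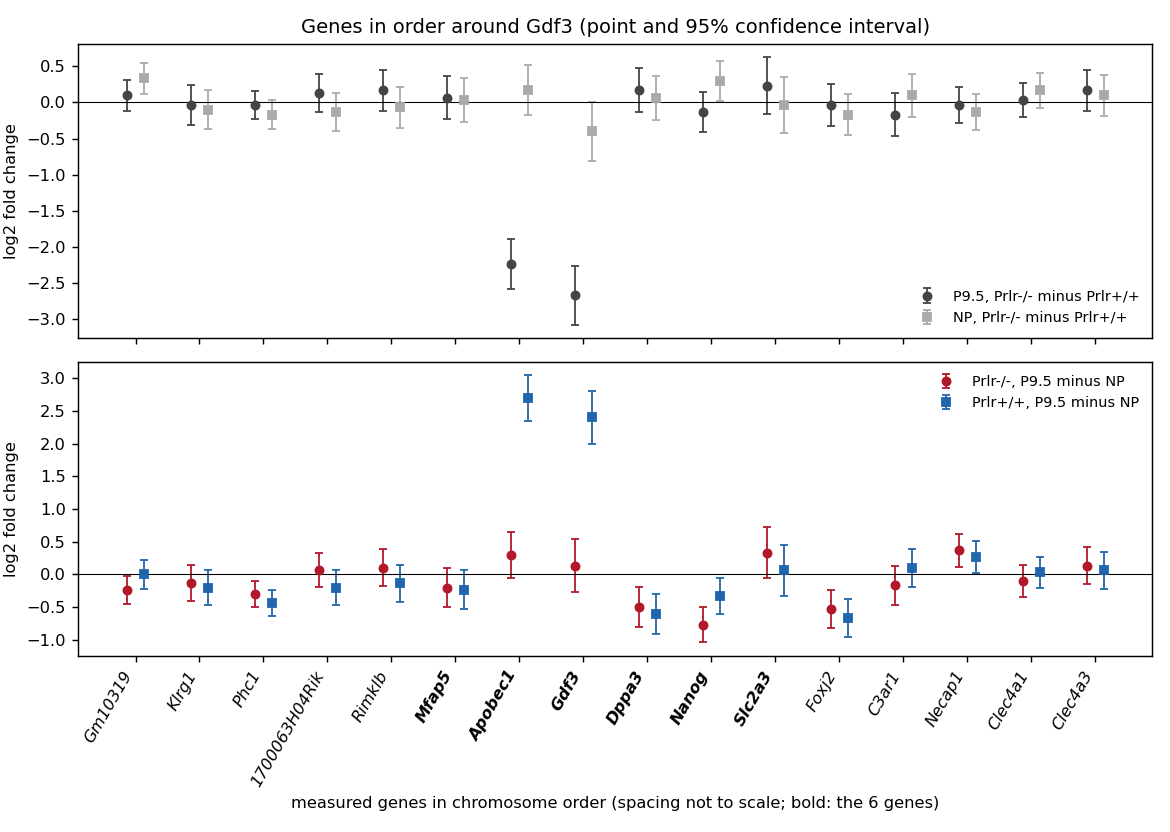
Log2 fold changes (y axis, with 95% confidence intervals) of the 16 measured genes around Gdf3 are drawn in chromosome order, with the genotype comparison at P9.5 and in NP mice above and P9.5 against NP in each genotype below. Only Apobec1 and Gdf3 leave the band of -0.17 to 0.23 in the P9.5 genotype comparison, and they were chosen on it.

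To describe which genes were most like the pair, mean-centred log2 profiles over the 12 arrays were compared by their root mean square difference with 19937 other genes. The gene nearest to Gdf3 was its neighbour Apobec1 (0.342 log2 units), followed by Tph2 (0.361), Car8 (0.452), Rbmx2 (0.464) and Cldn8 (0.473). Nearest to Apobec1 were Tph2 (0.266), Car8 (0.322), Gdf3 (0.342), Rbmx2 (0.345) and Fmo1 (0.365). A gene with no change and no array noise at all would stand at 1.16 from Gdf3 and at 1.10 from Apobec1. From Gdf3 the 4 neighbours were at 1.18 (Slc2a3, rank 8813), 1.26 (Mfap5, rank 15709), 1.32 (Nanog, rank 18833) and 1.4 (Dppa3, rank 19681). From Apobec1 the same genes were at 1.11, 1.21, 1.28 and 1.35 (ranks 8017, 15830, 18789 and 19632). None of the 4 was near the pair. Array noise alone can place an unchanged gene beyond the flat value, so standing beyond it does not mark a neighbour as unusual. Over the 4 group means in place of the 12 arrays, Tph2 was at rank 1 and Apobec1 at rank 2 for Gdf3, and Gdf3 was at rank 4 for Apobec1. These are descriptions, because all such genes share the high Prlr+/+ P9.5 arrays.

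Of the like genes, Tph2 encodes the neuronal form of tryptophan hydroxylase, the rate-limiting enzyme of serotonin synthesis. It was at 4.9 in each of the 3 Prlr-/- P9.5 arrays, against 7.2, 7.1 and 6.8 in Prlr+/+ P9.5 islets, and at 4.7 to 5.0 in all 6 NP arrays. Car8, a carbonic anhydrase-related protein that binds the inositol trisphosphate receptor, was at 7.3, 7.3 and 7.1 in Prlr-/- P9.5 against 9.2, 8.5 and 8.8 in Prlr+/+ P9.5 islets. In Prlr-/- P9.5 islets Car8 lay above all its NP values, which were 6.6 to 6.8 in Prlr-/- and 6.4 to 6.8 in Prlr+/+. Its log2 fold change between P9.5 and NP in Prlr-/- islets was 0.57, under the fold minimum. Apobec1 lay there at or above its NP values, with a smaller log2 fold change of 0.30, and Gdf3 lay within its NP values. Cldn8, a claudin of tight junctions, was at 4.6, 4.7 and 4.4 in Prlr-/- P9.5 against 7.9, 6.9 and 8.6 in Prlr+/+ P9.5 islets, a wider spread than that of Gdf3. Rbmx2, a splicing factor, differed by a log2 fold change of -1.53 at P9.5 and Fmo1, a flavin monooxygenase, by -1.57. Unlike the pair, Fmo1 was also called higher with pregnancy in Prlr-/- islets (0.90, against 2.23 in Prlr+/+ islets). The difference of these effects was not called for Fmo1.

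**Figure D3:**
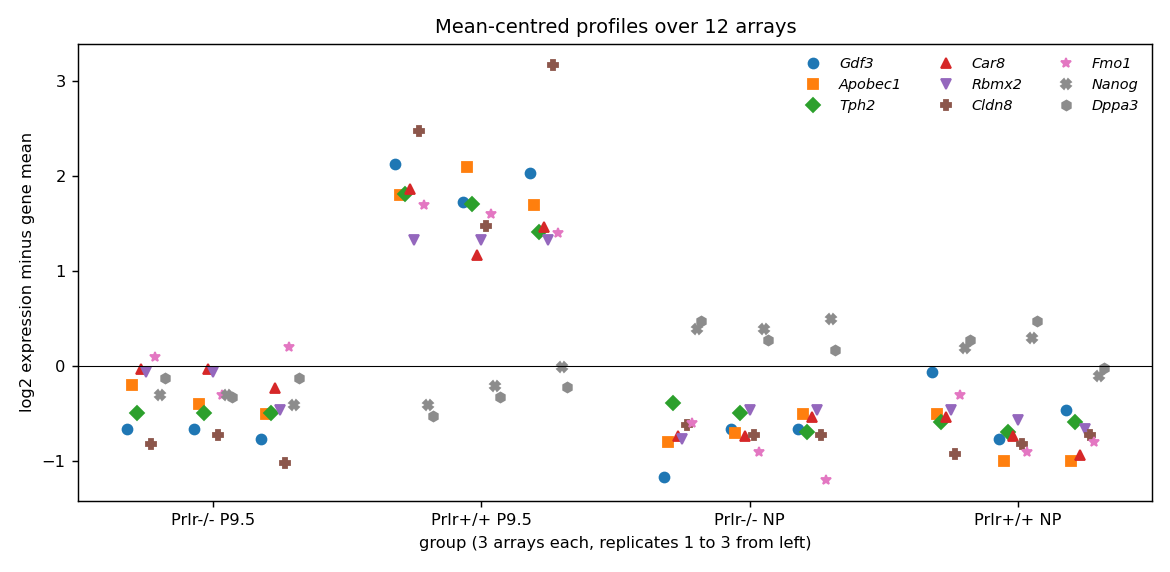
Mean-centred log2 expression (y axis) of Gdf3, Apobec1 and the 5 genes nearest to either is shown for each of the 12 arrays, with Nanog and Dppa3 in grey. The coloured genes stand high in the 3 Prlr+/+ P9.5 arrays, and the grey ones lie below their own mean or at it there.

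Next, genes that act with the pair or with the neighbours were read from 7 lists. The TGF-beta family ligands other than Gdf3 gave 0 of 30 called by limma at P9.5 between Prlr-/- and Prlr+/+ islets, and 0 with an unadjusted p under 0.05. Of all probe sets, 0.231% were called there and 5.42% had an unadjusted p under 0.05, so these counts are near the background of the array. The median log2 fold change was 0.03, against 0 over all probe sets, and the largest values were -0.23 for Gdf2 and 0.23 for Bmp15. With pregnancy limma called no ligand in either genotype, against 14.5% of all probe sets in Prlr-/- and 9.93% in Prlr+/+ islets. An unadjusted p under 0.05 was found for 9 of 30 in Prlr-/- and 6 of 30 in Prlr+/+ islets, below the 44.9% and 35.9% of all probe sets. Of 18 receptors and co-receptors, 1 was called at P9.5, beside 0.231% of all probe sets, and it was lower. This was Acvr1c, which encodes ALK7, the type I receptor through which GDF3 and Nodal signal and which is expressed in islets and adipose tissue.

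Acvr1c was at 7.1, 6.9 and 7.3 in Prlr-/- P9.5 islets, against 8.2, 8.3 and 8.4 in Prlr+/+ P9.5 islets. NP islets had 6.3 in each Prlr-/- array and 7.0, 6.7 and 6.7 in Prlr+/+. It was lower in Prlr-/- at P9.5 without overlap, and higher at P9.5 than in NP mice in both genotypes. The log2 fold change between genotypes at P9.5 was -1.20 (SE 0.12, adjusted p = 0.000976 from limma), and P9.5 against NP gave 0.80 in Prlr-/- (adjusted p = 0.000658) and 1.5 in Prlr+/+ islets (adjusted p = 9.28e-05), all called by limma. The NP genotypes differed by -0.50 (adjusted p = 0.151), and the pregnancy effects by -0.70 (adjusted p = 0.210), neither called by limma. Acvr1c was therefore higher at P9.5 than in NP mice in Prlr-/- islets too, where pregnancy and the pellet cannot be told apart. The remaining receptors called with pregnancy were lower at P9.5: Acvr2b (-0.60) and the endothelial co-receptor Eng (-0.67) in Prlr+/+ islets, and the co-receptor Tdgf1 (-0.67) in Prlr-/- islets. With Acvr1c these were 2 of 18 in Prlr-/- and 3 of 18 in Prlr+/+ islets, beside 14.5% and 9.93% of all probe sets. Acvr2b was not called with median centring (-0.53) or with only the groups compared in the fit (adjusted p = 0.06 from limma), and Tdgf1 was not with median centring, quantile normalization or array weights (-0.50, -0.46 and -0.57).

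None of 15 SMADs and extracellular inhibitors was called by limma at P9.5 between genotypes, beside 0.231% of all probe sets called and 5.42% with an unadjusted p under 0.05. The largest value in that list, with the 1 unadjusted p under 0.05, was that of the pseudoreceptor Bambi, with 7.9, 8.2 and 8.1 in Prlr-/- P9.5 against 7.4, 7.5 and 7.6 in Prlr+/+ P9.5 islets (log2 fold change 0.57, adjusted p = 0.582 from limma). In Prlr+/+ islets Bambi was called lower with pregnancy (-0.63, adjusted p = 0.0255 from limma), though not in limma fits without Prlr+/+ P9.5 replicate 2, the array with low Xist (adjusted p = 0.0689), P9.5 replicate 1 (adjusted p = 0.0835) or NP replicate 1 (adjusted p = 0.054). With only the groups compared in the limma fit its adjusted p was 0.0764, and with median centring or array weights it lay under the fold minimum (-0.57 in both).

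Among the cytidine deaminases and RNA editing genes, limma called 0 of 12 measured at P9.5 (13 listed), beside 0.231% of all probe sets. An unadjusted p under 0.05 in limma was found for 1, A1cf, beside 5.42% of all probe sets. A1cf, the RNA-binding cofactor of APOBEC1, was at 7.9, 7.8 and 8.1 in Prlr-/- P9.5 islets and at 7.1, 7.6 and 7.5 in Prlr+/+ P9.5 islets, the opposite direction to Apobec1. The P9.5 arrays did not overlap, but the log2 fold change of 0.53 (SE 0.133) had an adjusted p of 0.304 from limma. A1cf was higher with pregnancy in Prlr-/- islets by 0.70 (adjusted p = 0.00258 from limma, called), against 0.17 in Prlr+/+ islets (adjusted p = 0.399 from limma), and these effects differed by 0.53 (adjusted p = 0.391 from limma). Apob, whose mRNA is the classical substrate, had a log2 fold change of -0.17 at P9.5 (adjusted p = 0.977 from limma), as did Adar.

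For Nanog and Dppa3, the list of pluripotency and germ cell genes gave 0 of 22 called by limma at P9.5, with a median of -0.03. Of all probe sets, 0.231% were called there and 5.42% had an unadjusted p under 0.05. The largest value in the list, with its 1 unadjusted p under 0.05, was -0.30 for Pou5f1 (OCT4, adjusted p = 0.848 from limma). With pregnancy, 2 of 22 were called in Prlr-/- islets, both lower, and 0 of 22 in Prlr+/+ islets, below the 14.5% and 9.93% of all probe sets. The 2 were Dppa5a (-0.73, adjusted p = 0.0142 from limma) and Tdgf1 (-0.67, adjusted p = 0.0067 from limma). Neither was called with median centring (Dppa5a -0.57, Tdgf1 -0.50) or quantile normalization (-0.58 and -0.46). An unadjusted p under 0.05 in limma was found for 8 of 22 in Prlr-/- and 4 of 22 in Prlr+/+ islets, all lower. These counts are below the 44.9% and 35.9% of all probe sets. The list's medians were -0.22 in Prlr-/- and -0.20 in Prlr+/+ islets, beside -0.07 over all probe sets.

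For Slc2a3, 1 of 11 other glucose transporter family genes was called at P9.5, beside 0.231% of all probe sets, and it was lower: Slc2a13, the proton myo-inositol cotransporter. Slc2a13 was at 7.2, 6.7 and 6.8 in Prlr-/- P9.5 islets, against 8.4, 8.3 and 8.0 in Prlr+/+ P9.5 islets, and at 7.0 to 7.4 in all NP arrays. Like Gdf3 and Apobec1, it stood high in the Prlr+/+ P9.5 arrays only. The log2 fold change between genotypes at P9.5 was -1.33 (SE 0.152, adjusted p = 0.00221 from limma), and P9.5 against NP gave -0.27 in Prlr-/- (adjusted p = 0.195) and 1.13 in Prlr+/+ islets (adjusted p = 0.000753), both from limma. With only the P9.5 arrays in the fit the adjusted p of the first was 0.0737. The effects of pregnancy differed by -1.4 (SE 0.215, adjusted p = 0.0458 from limma), a call kept in 2 of the 12 fits that leave out an array, one omitting the first Prlr-/- P9.5 replicate and one omitting Prlr+/+ P9.5 replicate 3 (adjusted p 0.027 to 0.144 over the 12). Slc2a1 (GLUT1), the basal glucose transporter of many cells, was at 7.6, 7.3 and 7.4 in Prlr-/- P9.5 and 7.2, 7.2 and 7.1 in Prlr+/+ P9.5 islets. It was higher with pregnancy in Prlr-/- islets (0.60, adjusted p = 0.00434 from limma, though 0.56 and not called with quantile normalization), and the genotypes at P9.5 differed by 0.27 (adjusted p = 0.929 from limma).

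For Mfap5, 0 of 15 measured microfibril and elastic fibre genes (17 listed) were called by limma at P9.5 and 0 had an unadjusted p under 0.05. The shares of all probe sets were 0.231% and 5.42%. Fbln5, Ltbp4 and Fbln1 were at log2 fold changes of 0.30, 0.27 and 0.23. With pregnancy, Ltbp3 was lower in Prlr-/- islets (-0.67) and Ltbp4 in Prlr+/+ islets (-0.90), 1 of 15 in each, below the 14.5% and 9.93% of all probe sets. Ltbp3 was not called with median centring (-0.50).

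**Figure D4:**
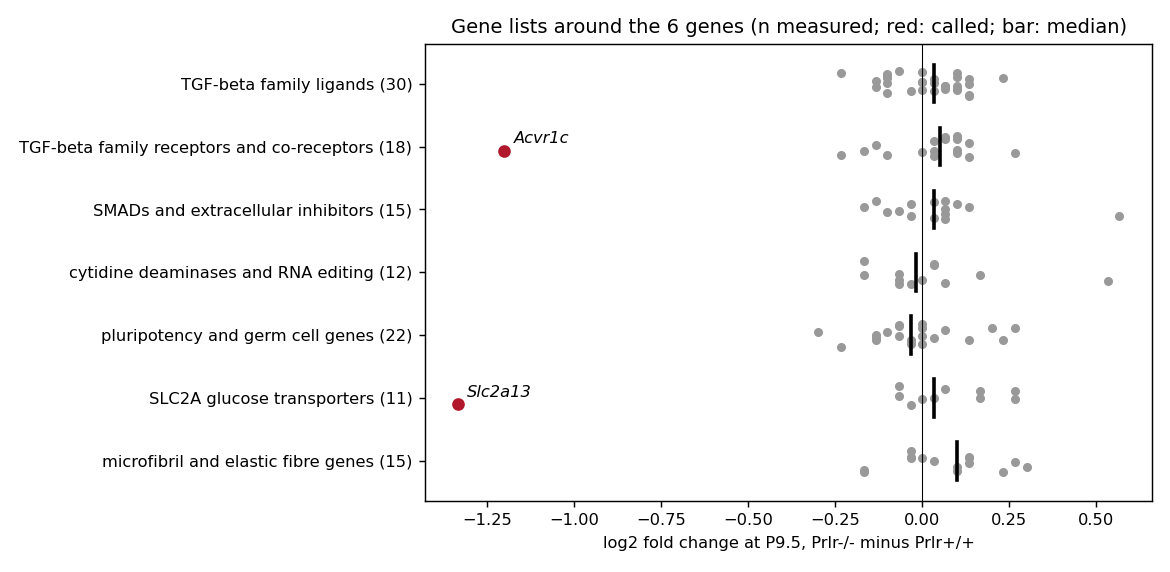
Each point is a gene of 7 lists, placed by its log2 fold change of Prlr-/- against Prlr+/+ at P9.5 (x axis); red points were called and bars are list medians. Acvr1c at -1.20 and Slc2a13 at -1.33 are the called ones, and the medians lie between -0.03 and 0.10.

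Whole islets hold other cells besides beta cells, and in such bulk RNA fewer cells of a type and less RNA per cell cannot be told apart. Macrophages express Apobec1 and several genes of the stretch, such as C3ar1, Clec4a1 and Clec4a3. All 20 macrophage markers listed were measured; their linear sum was 1260 to 1400 in Prlr-/- P9.5 and 1470 to 1700 in Prlr+/+ P9.5 islets, and 1140 to 1210 in Prlr-/- NP and 1170 to 1530 in Prlr+/+ NP islets. The P9.5 sums did not overlap between genotypes. At P9.5, 0 of the 20 were called between genotypes, beside 0.231% of all probe sets. An unadjusted p under 0.05 in limma was found for 4 of 20, all lower in Prlr-/-, above the 5.42% of all probe sets. The median log2 fold change was -0.15, against -2.23 for Apobec1. C3ar1, Clec4a1 and Clec4a3 themselves had P9.5 values of -0.17, 0.03 and 0.17. The part of these cells in the Apobec1 and Gdf3 values was not tested.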

How the data were processed

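Islet RNA of 12 mouse samples was hybridised to Affymetrix arrays. Robust multichip analysis in aroma.affymetrix, run by the authors, gave 1 log2 expression value per probe set, and the deposited log2 values are rounded to 0.1, so background correction and quantile normalization are part of every value. No probe-level data or detection calls were used, and which genome build defined the probe sets is not given in the sources used here. Symbols came from the array annotation, updated through Entrez identifiers, and gene order from RefSeq (GRCm38.p6).

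In R 4.3.3, limma 3.58.1 fitted 1 model with 4 group means to all 35511 probe sets, with 5 contrasts, tested on simulated data beforehand. Named genes are the 6 genes, the called genes and nearest measured genes of the stretch, the 5 genes nearest in profile to Gdf3 and to Apobec1, and those called in each list plus at most 3 of its largest P9.5 changes. The 6 genes and all lists were chosen with earlier results of these data known. Alternatives were other samples in the fit, a replicate block, each array left out, dim or unnamed probe sets left out, other scalings, priors, weights and fold minimums; noise of up to 0.05 was added after seeing the data.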

Additional observations from a re-analysis of the deposited data

Results flagged for a closer look

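The effect of pregnancy on Slc2a13 differed between the genotypes by a log2 fold change of -1.40 (Prlr-/- minus Prlr+/+, standard error 0.215, adjusted p = 0.0458 from limma), the test of the difference itself. Slc2a13 was at 6.7 to 7.2 in Prlr-/- P9.5 and at 8.0 to 8.4 in Prlr+/+ P9.5 islets, with 7.0 to 7.4 in Prlr-/- NP islets and 7.1 in every Prlr+/+ NP array. The call was lost with the replicate block (adjusted p = 0.0863 from limma) and with median centring (adjusted p = 0.109 from limma).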

How the results depend on the processing

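Over the alternatives, Gdf3 and Apobec1 kept their direction at P9.5, with pregnancy in Prlr+/+ islets and in the difference of pregnancy effects; leaving out each array gave -2.78 to -2.58 for Gdf3 and -2.32 to -2.12 for Apobec1 at P9.5, and the other alternatives -2.71 to -2.54 and -2.25 to -2.15. For Gdf3 in Prlr-/- islets, P9.5 against NP ran from -0.03 to 0.30. The count of neighbours called stayed 0 of 4 at P9.5, in NP mice and for the difference of effects. In Prlr+/+ islets with pregnancy it was 1 and became 0 with median centring and with quantile normalization (Dppa3 -0.53 and -0.51), and 0 to 1 when arrays were left out. In Prlr-/- islets it was 1 and became 2 with a fold minimum of 1.2 or with none, as Dppa3 joined Nanog. With the replicate block all 5 counts of neighbours kept their value; same-numbered arrays deviated together at over 0.1 in 7 of 18 pairs (-0.114 to 0.227), and 1 of 12 arrays matched its own number best throughout, so the numbers were not taken as pairs.

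Directions that turned round belong to values near 0, none of them called. Quantile normalization gave Mfap5 0.0056 in Prlr-/- islets (P9.5 against NP). In NP mice, Dppa3 was at -0.0333 with median centring and -0.0194 with quantile normalization, Mfap5 at -0.0667, -0.0639 and, with array weights, -0.0047, and Slc2a3 at 0.0255 with array weights. The mean of both Dppa3 probe sets gave -0.0667 for the difference of effects. Leaving out arrays gave Mfap5 -0.0667 to 0.133 at P9.5, Slc2a3 -0.12 to 0.23 in Prlr+/+ islets, Dppa3 -0.0667 to 0.183, Mfap5 -0.05 to 0.13 and Slc2a3 -0.22 to 0.13 in NP mice, and Dppa3 -0.0167 to 0.233 and Mfap5 -0.10 to 0.12 for the difference.

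Median centring moved the median of all probe sets to 0.10 in Prlr-/- islets with pregnancy, against -0.07 before. Over all alternatives the probe sets called ran from 39 to 118 at P9.5 (82), 1898 to 7745 in Prlr+/+ (3528) and 2513 to 11846 in Prlr-/- islets (5159), 0 to 172 in NP mice (36) and 16 to 96 for the difference (28). Of the 16 calls of list and stretch genes, 293 of 335 alternative values kept the call and 42 lost it. Among them, leaving out 1 array lost Acvr2b (Prlr+/+ NP replicates 2 and 3, P9.5 replicate 1), Eng (NP replicate 2, P9.5 replicate 1) and Foxj2 (P9.5 replicate 1) in Prlr+/+ islets, and in Prlr-/- islets Tdgf1 (NP replicate 1, P9.5 replicate 3), Dppa5a (NP replicates 1 and 3, P9.5 replicate 3) and Slc2a1 (NP replicates 1 and 3, P9.5 replicate 1). Dppa3 and Mfap5 have no value without the dimmest 40% of probe sets. The causes were not tested.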
